A study of Mus musculus with 6 samples.

Results

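The genes described here make cholesterol, take it up, move and store it, and export it, in the livers of obese diabetic mice. They were chosen as a list of 37 named genes of these functions. All probe sets that the platform annotation names with exactly 1 of these symbols were taken. Probe sets were found for 31 of the 37 genes, 56 in all, of 22626 probe sets analysed. Insig1, Acat2, Lipc, Soat1, Soat2 and Nr1h2 were not analysed here. A filter on dim signals kept 49 of the 56 probe sets, and each of the 31 genes kept at least 1. These 31 stand among 8151 genes tested.

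Both groups were male KK/H1J mice, an inbred strain in which many genes together produce obesity and type 2 diabetes. The animals were 12 to 14 weeks old (for BPD mouse 28 a second label gives 2 to 14 weeks), weighed about 35 g, ate freely and were housed singly, and each had received an adenovirus through the tail vein at 1 stated dose. In the BPD group (mice 23, 28 and 36) the virus carried the bifunctional enzyme PFK-2 in a form without bisphosphatase activity, and in the GFP group (mice 22, 29 and 31) it carried green fluorescent protein. The promoter of the viral transgene is not given in the sources used here, both groups carry virus, and no group without virus was analysed here. Livers were collected on day 7, and each array holds the RNA of 1 liver. The enzyme form raises fructose 2,6-bisphosphate, and the comparison asks how the liver transcriptome responds to it.

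Cholesterol is built from acetyl-CoA. The early steps of the pathway lead through mevalonate to farnesyl diphosphate, which also feeds other isoprenoids, and the later steps join farnesyl units to squalene, close the sterol ring and trim it to cholesterol. When sterols in the endoplasmic reticulum are scarce, the escort protein SCAP carries the transcription factor SREBP-2 to the Golgi, where it is cut and released to switch on these enzymes, while INSIG proteins hold the complex back. The liver also takes up lipoprotein cholesterol, and it exports sterol through ABC transporters, several of which respond to the oxysterol receptor LXR.

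Cholesterol synthesis genes were lower in the BPD livers along the whole measured pathway. All 17 measured synthesis genes fell (6 of 6 early steps and 11 of 11 late steps), with log2 differences (BPD minus GFP) from -0.66 for Mvd to -2.69 for Fdps. Over all genes tested 22.2% fell and 8.75% rose. Of the 31 sterol genes 24 fell, 0 rose and 7 did not pass (limma). At an unadjusted p under 0.05, 1 gene was higher (Abcg1). The genes of uptake, transport, storage and efflux were mixed, with 5 of 11 lower and 6 not passing. Calls are those of limma with adjusted p under 0.05 over all probe sets. Values are log2(signal + 16.3), centred on the array median, with each gene represented by its brightest kept probe set. Each group holds 3 livers, and fold changes are on this log2 scale, with the SE of the fit after the ± sign.

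The scale between arrays matters for these counts. The median of all genes differed between BPD and GFP livers by -0.22 on centred arrays. It was 0.08 on the scale as deposited and -0.06 after quantile normalization. The median of the 17 synthesis genes was -1.21, -0.91 and -0.95 in the same order, hence about 0.99 below the median of all genes in the centred values. With the deposited scaling 10 of 17 synthesis genes fell, against 11.1% of all genes lower and 17.2% higher. With quantile normalization 11 of 17 fell, against 12.9% lower and 12.6% higher. Under all 3 scalings 13 sterol genes fell, against 9.24% of all genes: Fdps, Pmvk, Lss, Tm7sf2, Msmo1, Nsdhl, Hsd17b7, Ebp, Sc5d, Dhcr7, Scap, Lcat and Stard4. By role these were 2 of 6 early steps, 8 of 11 late steps, 1 of 3 regulators, 1 of 3 transport genes and 0 of 5 efflux genes. The genes of uptake and plasma lipoprotein handling gave 1 of 3, Lcat. The uptake receptors Lrp1 and Scarb1 were not among them.

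**Figure D1:**
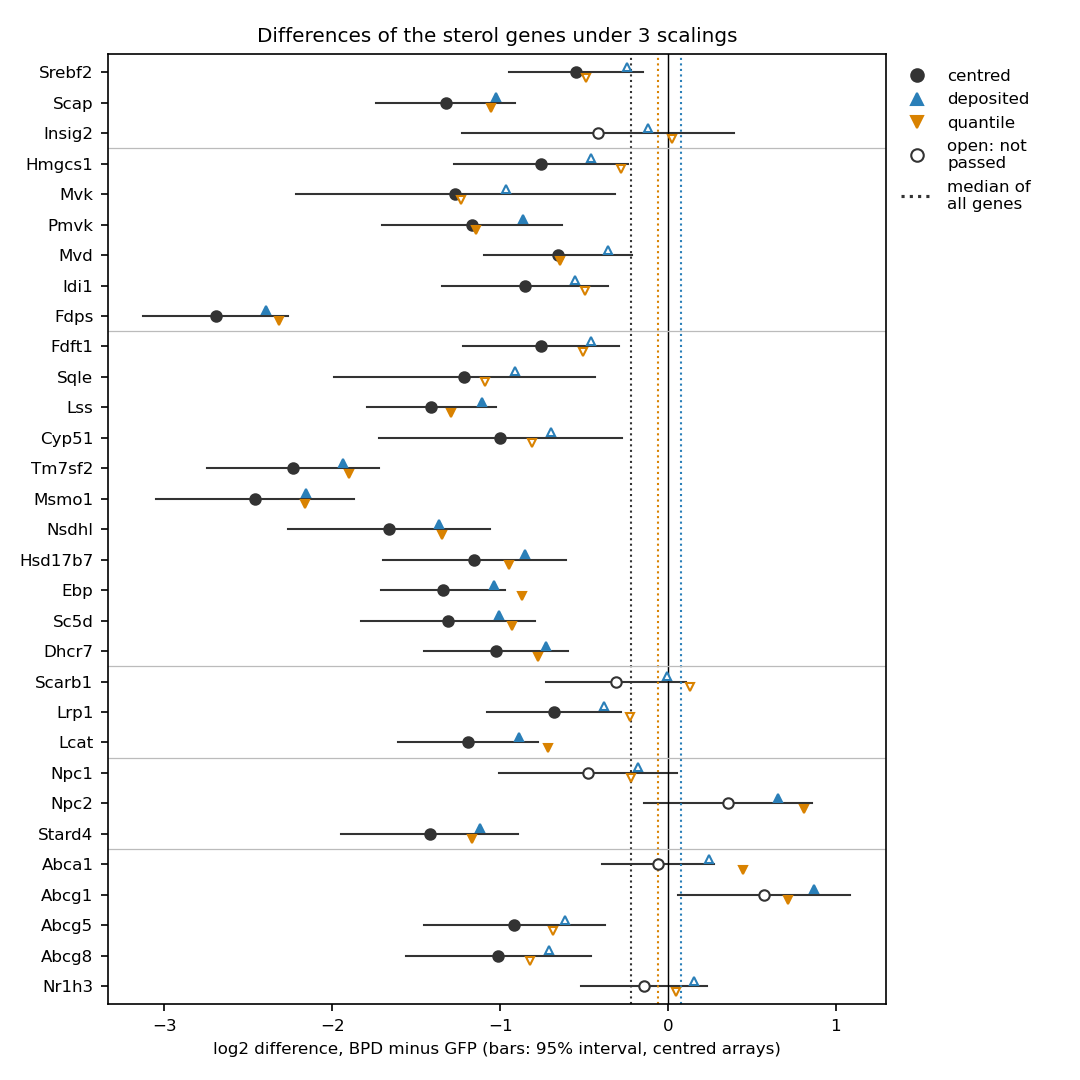
Log2 difference, BPD minus GFP, for the 31 sterol genes in order of role, with 95% intervals (unadjusted, n = 3 livers per group) for centred arrays, and the same difference with the deposited scaling and after quantile normalization. Filled symbols passed an adjusted p of 0.05, dotted lines mark the median of all genes under each scaling, and Fdps, Msmo1 and Tm7sf2 lie farthest to the left, between -2.69 and -1.90 under every scaling.

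Among the early steps, farnesyl diphosphate synthase stood apart. Fdps makes the branch point metabolite farnesyl diphosphate. Its signal was 733, 1172 and 1049 in BPD livers 23, 28 and 36 and 4237, 5429 and 5920 in GFP livers 22, 29 and 31. The lowest GFP liver thus lay far above the highest BPD liver. Fdps fell by 2.69 ± 0.19 (SE), 6.47-fold (limma adjusted p = 0.000128), and only 0.221% of all genes tested fell further. Without any 1 of the mice, and under every other alternative run, it still passed.

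The enzymes before Fdps fell less. Pmvk, the phosphomevalonate kinase, had signals of 66.7, 97.3 and 130 in BPD livers and 158, 220 and 186 in GFP livers, with no overlap. It fell by 1.17 ± 0.24 (limma adjusted p = 0.00724). Idi1, which isomerises isopentenyl diphosphate, had signals of 1352, 1771 and 1602 in BPD and 1557, 2619 and 2985 in GFP livers. GFP liver 22 therefore lay among the BPD livers in the deposited signals, and after centring it lay above them. Idi1 fell by 0.85 ± 0.22 (limma adjusted p = 0.0195). The difference of its other kept probe set, -0.84, did not pass. In that probe set GFP liver 22 stayed below BPD livers 28 and 36 after centring. Mvd, the mevalonate diphosphate decarboxylase, had signals of 138, 182 and 174 in BPD and 163, 232 and 257 in GFP livers. GFP liver 22 overlapped the BPD livers in the deposited signals here too. Mvd fell by 0.66 ± 0.20 (limma adjusted p = 0.0340), and the difference of its other kept probe set, -0.62, did not pass.

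Hmgcs1, the cytosolic HMG-CoA synthase that opens the mevalonate route, was bright, with signals of 3312, 3104 and 2631 in BPD and 2670, 5047 and 5192 in GFP livers. It was picked for a closer account after its values were seen, because GFP liver 22 was as low as the lowest BPD liver. The fall of 0.76 ± 0.23 (limma adjusted p = 0.0370) was not called with the deposited scaling (-0.46) or after quantile normalization (-0.28). Its 4 kept probe sets ranged from -0.76 to -0.57, and 2 of them passed. Mevalonate kinase (Mvk) was dim, with a mean signal of 76.4 ± 48.6 among BPD livers against 151 ± 54.3 among GFP livers (SD, n = 3). Its fall of 1.27 ± 0.42 passed at the very edge of the threshold (limma adjusted p = 0.04997), and the call was lost with the deposited scaling and after quantile normalization. Leaving out BPD mouse 28, GFP mouse 29 or GFP mouse 31 reduced the number of early steps called from 6 to 2. Leaving out BPD mouse 23 reduced it to 3. Mvk was too dim to test in the runs without GFP mouse 29, GFP mouse 31 or BPD mouse 23. The share of all genes called lower, 22.2% with all mice, was 11.4% without BPD mouse 28, 19.7% without GFP mouse 29, 14.6% without GFP mouse 31 and 17.4% without BPD mouse 23.

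Among the late steps the largest falls were in the enzymes that trim the sterol ring after lanosterol. Msmo1, the methylsterol monooxygenase that starts removal of the C4 methyl groups, had signals of 461, 816 and 668 in BPD and 1851, 3509 and 3665 in GFP livers. Every BPD liver lay below every GFP liver by a wide margin. The gene fell by 2.46 ± 0.26, 5.50-fold (limma adjusted p = 0.000552). Tm7sf2, a sterol C14-reductase, had signals of 610, 834 and 1013 in BPD and 2471, 3081 and 3948 in GFP livers, again without overlap. It fell by 2.23 ± 0.23, 4.71-fold (limma adjusted p = 0.000483).

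Lanosterol synthase (Lss), which closes the sterol ring, had signals of 303, 330 and 273 in BPD and 539, 692 and 797 in GFP livers, and fell by 1.41 ± 0.17 (limma adjusted p = 0.000856). Ebp, the sterol isomerase that shifts a ring double bond, had signals of 2875, 3168 and 2594 in BPD and 5262, 5555 and 7063 in GFP livers, and fell by 1.34 ± 0.16 (limma adjusted p = 0.000873). Both genes were tightly grouped among BPD livers and separate from all GFP livers.

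The late genes Nsdhl, Hsd17b7, Sc5d and Dhcr7 also fell under all 3 scalings. Nsdhl and Hsd17b7, which act with Msmo1 in demethylation at C4, fell by 1.66 ± 0.27 and 1.15 ± 0.24. Sc5d, the sterol C5-desaturase, fell by 1.31 ± 0.23, and Dhcr7, the reductase of the last step in one branch, by 1.03 ± 0.19. The second kept probe set of Sc5d, with signals from 187 to 387 in all livers, differed by -0.42 and did not pass.

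For the other 3 late genes the representative probe set passed on centred arrays only, and the differences stayed below zero under the other scalings. Squalene synthase (Fdft1), the first committed step to sterols, fell by 0.76 ± 0.21, and its difference was -0.46 on the deposited scale and -0.51 after quantile normalization. Cyp51, the lanosterol demethylase, fell with a difference of -0.998 ± 0.322, against -0.70 and -0.81 in the same order. A second kept probe set of Cyp51 passed after quantile normalization too (-1.03, limma adjusted p = 0.0362). Squalene epoxidase (Sqle), a rate-controlling step, had signals of 245, 424 and 341 in BPD and 310, 892 and 906 in GFP livers, and is shown for its overlap, picked after its values were seen. Only GFP liver 22 overlapped the BPD livers. Sqle fell by 1.21 ± 0.35 (limma adjusted p = 0.0285), but on the deposited scale the difference was -0.91 (adjusted p = 0.123) and after quantile normalization -1.09 (0.0628).

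**Figure D2:**
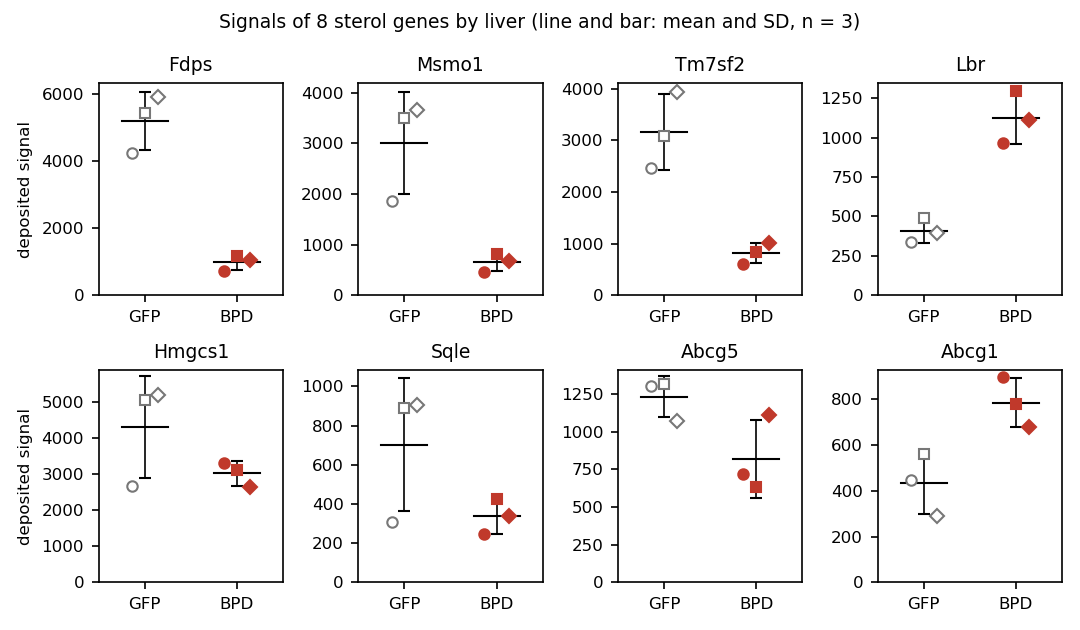
Deposited signal (linear axis from 0) of 8 sterol genes in each liver, with GFP livers as open and BPD livers as filled symbols (circle, square and diamond for GFP mice 22, 29 and 31 and for BPD mice 23, 28 and 36) and with mean and SD of 3 livers. Fdps, Msmo1 and Tm7sf2 are separate and lower in BPD livers, Lbr and Abcg1 are separate and higher, and in Hmgcs1 and Sqle the open circle of GFP mouse 22 lies among the BPD livers.

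GFP mouse 22 was the lowest of the 3 GFP livers in 16 of the 17 synthesis genes after centring, against 21.1% of all genes tested and 3 of the 14 other sterol genes. In the deposited signals 7 synthesis genes overlapped between the groups, and in all 7 GFP liver 22 was the only GFP liver that reached the BPD range. In the other 10 synthesis genes the groups did not overlap. After centring, the brightest probe set put all BPD livers below all GFP livers in 17 of 17 synthesis genes. The same held for 24 of the 31 sterol genes, against 36.4% of all genes. In other kept probe sets of Hmgcs1, Idi1 and Sc5d the groups overlapped after centring. Without GFP mouse 22 the number of early steps called was 5 and that of late steps 11. These were all 16 synthesis genes tested in that run, since Mvk was too dim. Of all genes, 13.7% were lower in that run.

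Early and late steps were compared by the median over their genes in each liver, relative to the GFP mean. The late steps were at -1.47, -1.30 and -1.12 in BPD livers 23, 28 and 36 and at -0.33, 0.05 and 0.36 in GFP livers 22, 29 and 31. The early steps were at -0.91, -0.97 and -0.84 in BPD and at -0.32, 0.04 and 0.31 in GFP livers. Late minus early was -0.56, -0.33 and -0.28 in BPD livers and between -0.01 and 0.05 in GFP livers. The median difference between groups was -1.31 for the late and -1.01 for the early steps. This gap of -0.30 shrank to -0.06 after quantile normalization and was -0.52 without GFP mouse 31 and -0.47 without GFP mouse 29. It is a description of a list chosen with earlier results known, and no test was made of it.

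**Figure D3:**
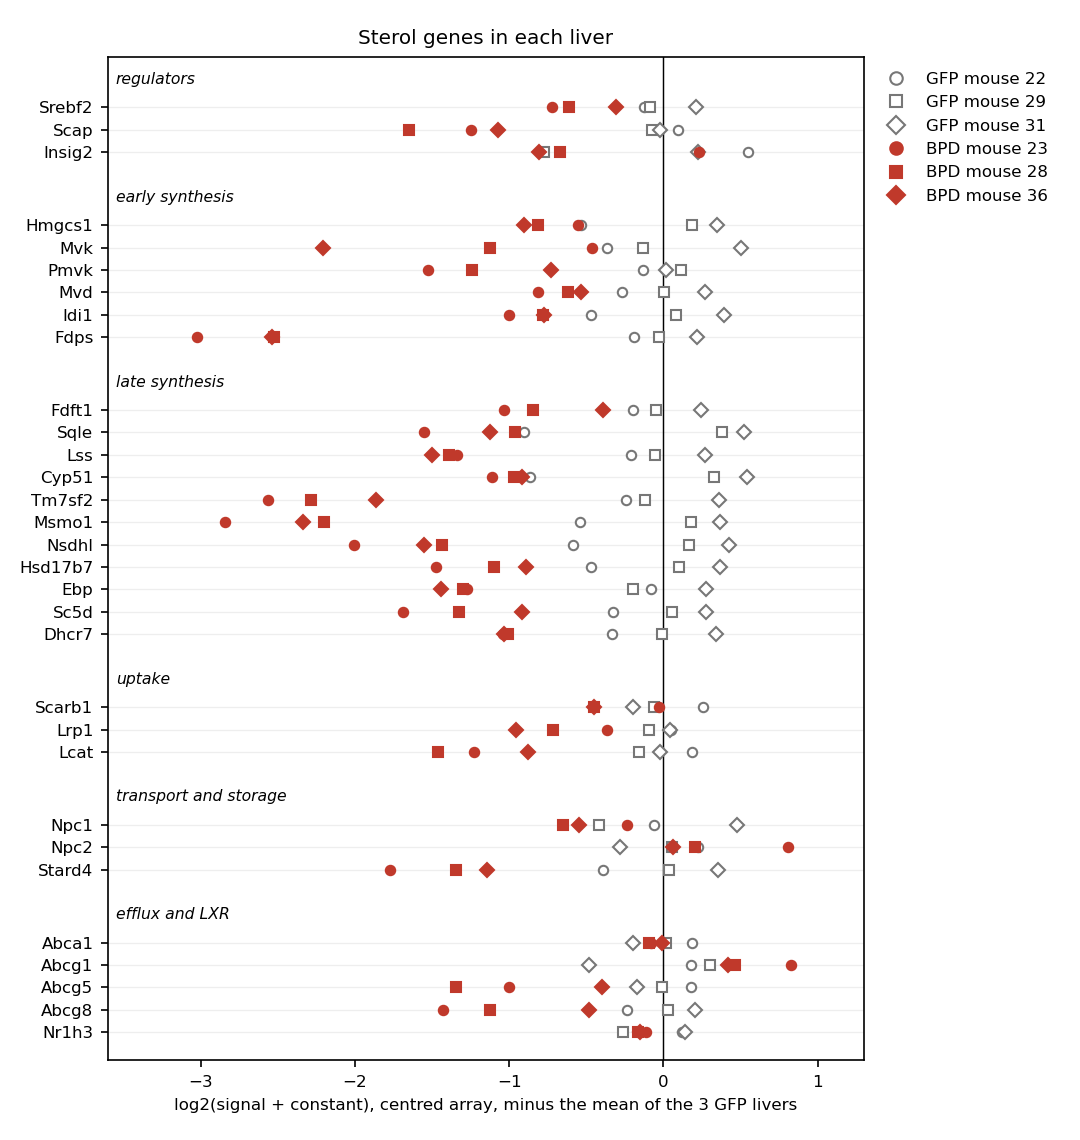
Each of the 31 sterol genes in each liver, by its brightest kept probe set, as log2(signal + constant) on centred arrays minus the mean of the 3 GFP livers, grouped by role. In all 17 synthesis genes the filled BPD symbols lie left of the open GFP symbols, with Fdps, Msmo1 and Tm7sf2 farthest, whereas Insig2, Scarb1, Npc1, Npc2, Abca1 and Nr1h3 overlap.

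The 250 bases before the start sites of these genes were read from RefSeq (GRCm38.p6) to describe their sequence. Windows were found for 14 of the 17 measured synthesis genes. The sequences were searched on both strands for the sterol regulatory element TCACNCCAC, to which SREBP proteins bind, and for the CCAAT box, which is bound by NF-Y. A CCAAT box stood in 14 of these 14 genes, against 40.3% of the 6665 tested genes with a window. In 9 of the 14 there was more than 1 CCAAT box, against 15.6%. The window of Acat2, a listed synthesis gene that was not measured, held none. Of the listed synthesis genes with a window, measured or not, 14 of 15 thus held a CCAAT box. Among the listed genes of the other roles with a window, measured or not, a CCAAT box stood in 3 of 4 regulators, 2 of 3 uptake genes, 2 of 2 transport and storage genes and 1 of 5 efflux and LXR genes. Insig2 and Npc2, which were not called on centred arrays, held CCAAT boxes, whereas Scap, Lrp1 and Abcg5, which fell, held none in these windows. Srebf2, Lcat and Abcg8, which also fell, held CCAAT boxes. Abca1 and Nr1h3, which were not called on centred arrays, held none. The sterol element in this spelling stood in 1 of the 14, Hmgcs1, against 1.40% of tested genes. A gene with several start sites was counted if any of its windows held a match. In Hmgcs1 the sterol element and the CCAAT boxes do not overlap. These matches describe letters and do not show binding.

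The windows below belong to the synthesis genes with the smallest p that hold a match and show how near the starts the CCAAT boxes lie. CCAAT boxes are in capitals (read as ATTGG where they lie on the other strand), the gene's own strand is given, and positions count back from the start site. The line of Hmgcs1 is added because it carries the one sterol element match, which is in capitals there.
Tm7sf2, chr19:6067878-6067912, minus strand, -62 to -28: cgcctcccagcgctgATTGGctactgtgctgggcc
Msmo1, chr8:64733614-64733753, minus strand, -175 to -36: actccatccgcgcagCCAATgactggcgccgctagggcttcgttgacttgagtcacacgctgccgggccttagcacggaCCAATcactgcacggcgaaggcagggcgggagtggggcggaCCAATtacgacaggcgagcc
Lss, chr10:76531528-76531562, plus strand, -77 to -43: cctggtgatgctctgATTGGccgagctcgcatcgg
Ebp, chrX:8193548-8193697, minus strand, -185 to -36: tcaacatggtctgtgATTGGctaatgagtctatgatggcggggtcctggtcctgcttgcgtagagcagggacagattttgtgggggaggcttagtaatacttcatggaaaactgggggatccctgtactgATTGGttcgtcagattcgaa
Nsdhl, chrX:72918397-72918520, plus strand, -124 to -1: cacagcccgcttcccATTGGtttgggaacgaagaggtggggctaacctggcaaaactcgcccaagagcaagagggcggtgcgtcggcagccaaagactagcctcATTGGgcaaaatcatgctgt
Sc5d, chr9:42264305-42264339, minus strand, -39 to -5: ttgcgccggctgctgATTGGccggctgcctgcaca
Hmgcs1, chr13:119690199-119690237, plus strand, -152 to -114: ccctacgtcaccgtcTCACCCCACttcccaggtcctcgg

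Of the regulators, Scap fell and Insig2 did not pass. Scap, the sterol-sensing escort of SREBP-2, had signals of 842, 711 and 967 in BPD and 1718, 1750 and 1664 in GFP livers, with no overlap and a spread among GFP livers of only 43.3 (SD, n = 3). It fell by 1.32 ± 0.18, 2.50-fold (limma adjusted p = 0.00141). Srebf2, which encodes SREBP-2, had signals of 217, 265 and 298 in BPD and 265, 314 and 355 in GFP livers, ranges that overlap. Its fall of 0.55 ± 0.18 passed narrowly (limma adjusted p = 0.0461), but with the deposited scaling it was -0.25 and did not pass. Its second probe set fell by 0.77 on centred arrays and also passed only there. Insig2, an anchor of the SCAP complex, had signals of 4008, 2397 and 1968 in BPD and 3980, 1813 and 3339 in GFP livers, so both groups covered the same range. The difference was -0.42 ± 0.36 (limma adjusted p = 0.405). The 3 kept probe sets of Insig2 ranged from -0.66 to -0.32, and none passed.

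Among the genes of uptake and plasma lipoprotein handling, Lcat fell and Scarb1 did not pass. Lcat is secreted by the liver and esterifies cholesterol on plasma HDL. Its signals were 2258, 2152 and 2929 in BPD and 4808, 4331 and 4367 in GFP livers, without overlap, and it fell by 1.19 ± 0.19, 2.28-fold (limma adjusted p = 0.00227). Lrp1, an endocytic receptor for remnant particles, had signals of 2993, 2630 and 2011 in BPD and 3179, 3304 and 3322 in GFP livers. The groups were separate but close, and the fall of 0.68 ± 0.18 (limma adjusted p = 0.0204) lost its call on the deposited scale (-0.38) and after quantile normalization (-0.22). Scarb1, the HDL receptor SR-B1, differed by -0.31 ± 0.19 (limma adjusted p = 0.235), and by -0.01 with the deposited scaling. Its 95% interval ran from -0.73 to 0.11, so a moderate fall is within the error.

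Of the transport and storage genes, Stard4, a cytosolic carrier that moves cholesterol between membranes, followed the synthesis genes. Its signals were 536, 816 and 851 in BPD and 1131, 1745 and 2001 in GFP livers, without overlap. It fell by 1.42 ± 0.23, 2.67-fold (limma adjusted p = 0.00286), and the difference of its other kept probe set, -0.85, did not pass. Npc1 and Npc2 together release cholesterol from lysosomes. Npc1 differed by -0.48 ± 0.24 (limma adjusted p = 0.155), with signals from 936 to 1148 in BPD and from 920 to 1584 in GFP livers.

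Npc2 and the transporter Abcg1 lay above zero. Npc2 had signals of 4809, 3553 and 2907 in BPD and 2558, 2598 and 1883 in GFP livers, all BPD livers above all GFP livers before centring. Its difference was 0.36 ± 0.22 on centred arrays (limma adjusted p = 0.251), 0.66 with the deposited scaling (0.0468) and 0.81 after quantile normalization (0.0260). The other kept probe set of Npc2 differed by 0.49 on centred arrays and did not pass (limma adjusted p = 0.103). There the groups stayed apart after centring, narrowly, with BPD liver 36 at 10.95 and GFP liver 29 at 10.91. Its difference was 0.79 with the deposited scaling (0.0218) and 0.87 after quantile normalization (0.0203). Abcg1, which exports cholesterol to HDL, had signals of 895, 778 and 680 in BPD and 447, 560 and 290 in GFP livers, without overlap. Its difference was 0.57 ± 0.23 (limma adjusted p = 0.0880), 0.87 with the deposited scaling (0.0278) and 0.72 after quantile normalization (0.0494). Neither gene was called on centred arrays, and both are given in full because of their values.

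Abcg5 and Abcg8, which pair to form the transporter that secretes sterol into bile, fell together. Their nearest start sites lie 110 bases apart on opposite strands of chromosome 17. Abcg5 had signals of 718, 631 and 1113 in BPD and 1306, 1317 and 1075 in GFP livers, and Abcg8 of 415, 581 and 826 in BPD and 769, 1064 and 1104 in GFP livers. BPD liver 36 was the highest BPD liver for both and overlapped the GFP range before centring. Abcg5 fell by 0.92 ± 0.24 and Abcg8 by 1.01 ± 0.25 (limma adjusted p = 0.0202 and 0.0149). With the deposited scaling the adjusted p was 0.0681 and 0.0716, and after quantile normalization 0.0602 and 0.0501.

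Abca1, which loads cholesterol onto apolipoprotein A-I, had signals of 4837, 5368 and 5147 in BPD and 4611, 4703 and 3717 in GFP livers, all BPD livers above all GFP livers before centring. Its difference on centred arrays was -0.06 ± 0.15 (limma adjusted p = 0.787), with a 95% interval from -0.39 to 0.27. It turned to 0.45 and passed after quantile normalization (0.0405). Its 3 kept probe sets ranged from -0.15 to 0.09, so 1 of them lay above zero. Nr1h3, which encodes LXR alpha, differed by -0.14 ± 0.17 (limma adjusted p = 0.539), with signals from 769 to 843 in BPD and from 638 to 775 in GFP livers.

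Other genes of the pathway came from a list of 40, of which 26 were tested. Of these 15 fell, 1 rose and 10 did not pass. The list median was -0.63 against -0.22 for all genes. Acss2, a cytosolic acetyl-CoA synthetase and SREBP target, fell by 2.80 ± 0.26, with a signal of 3851 ± 800 among GFP livers against 685 ± 233 among BPD livers (SD, n = 3). Stard5, a lipid carrier of the START family, fell by 1.80 ± 0.19, and Tmem97, a sterol-responsive membrane protein, by 1.58 ± 0.19. Cyb5b, a cytochrome b5, fell by 1.43 ± 0.17 and Mmab, a neighbour of Mvk in the genome, by 1.20 ± 0.18.

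The gene that rose was Lbr, the lamin B receptor of the inner nuclear membrane, which is itself a sterol C14-reductase like Tm7sf2. Its signals were 966, 1298 and 1112 in BPD and 337, 489 and 393 in GFP livers, all BPD livers above all GFP livers. Lbr rose by 1.14 ± 0.16, 2.20-fold (limma adjusted p = 0.0016), by 1.44 with the deposited scaling and by 1.31 after quantile normalization, and passed under each. The 2 genes of the same reaction step thus went in opposite directions, Tm7sf2 down by 2.23 and Lbr up by 1.14. Their levels cannot be set against each other, since probe sets differ in brightness.

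Markers of liver cell types moved between the groups as well. Of 13 measured hepatocyte markers 13 fell, with a median of -0.87, and their summed signal was 130720 to 140904 in BPD and 198580 to 211879 in GFP livers. After quantile normalization 5 of the 13 fell. Alb was bright in every liver, with a mean signal of 16231 in BPD and 19217 in GFP livers. On centred arrays the fall exceeded the hepatocyte marker median of -0.87 in 13 of the 17 synthesis genes. For scale, 8.81% of all genes fell further than Abcg5 (-0.92) and 10.5% further than Idi1 (-0.85). The marker median was -0.57 on the deposited scale and -0.21 after quantile normalization. In whole tissue, fewer cells of a type and less RNA per cell cannot be told apart, and the part of hepatocyte content in the sterol differences was not tested.

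Macrophage markers were higher in BPD livers, with 11 of 15 tested markers risen and 0 fallen, and a median of 1.51. Their summed signal over 17 genes was 22043 to 45843 in BPD and 5912 to 18613 in GFP livers. None was listed at 0, and Marco and Cd163 were too dim to test. Clec4f and Vsig4, markers of resident Kupffer cells, did not pass (-0.58 and 0.48). Abcg1 and Npc2 were the 2 sterol genes whose deposited signals put the 6 livers in the same order as the macrophage sum, from BPD mouse 23 down to GFP mouse 31. This order was found in 2.31% of all genes tested. The summed signal of the stellate and matrix markers put the livers in the same order. After centring, Abcg1 kept this order, but in the brightest probe set of Npc2 GFP liver 22 lay above BPD liver 28. The other kept probe set of Npc2 kept the order after centring.

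Neutrophil markers rose in 4 of 5 tested genes, with a median of 2.02 and S100a8 at 3.91, and their summed signal was 1757 to 8184 in BPD and 452 to 721 in GFP livers. Stellate and matrix markers rose in 3 of 8 (Col1a1, Col3a1 and Vim), with a median of 1.44, and their summed signal was 3730 to 13948 in BPD and 1475 to 2109 in GFP livers. Of 7 endothelial markers 1 rose and 1 fell, and none of the 5 cholangiocyte markers was bright enough to test. The part of macrophages and of these other cells in the differences of Abcg1, Npc2 and the other sterol genes was not tested.

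**Figure D4:**
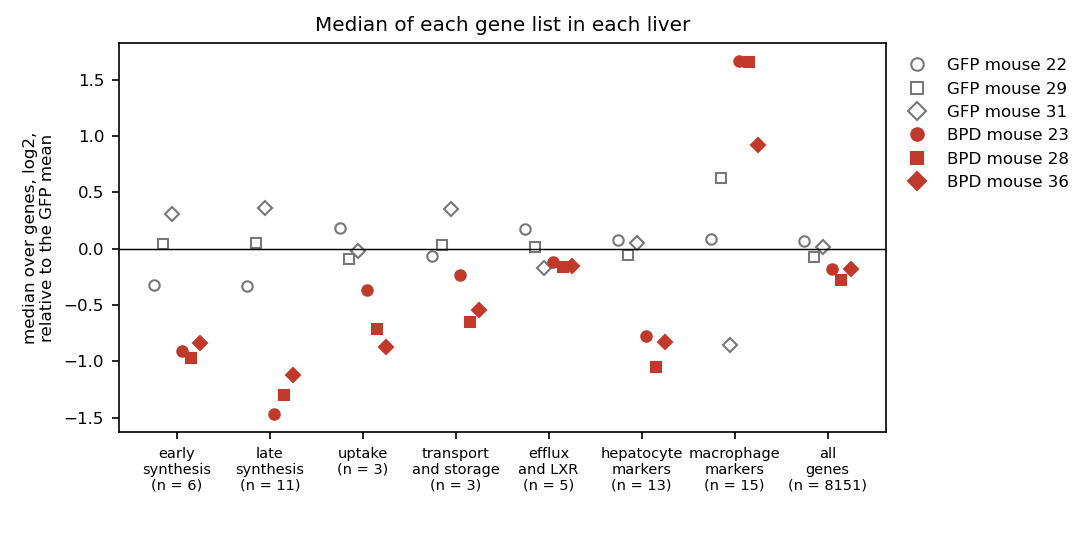
Median over the tested genes of each list in each liver, on the log2 scale relative to the mean of the 3 GFP livers (centred arrays). Early and late synthesis lie below zero in all 3 BPD livers (-0.84 to -1.47), the efflux and LXR genes lie near the median of all genes, and the macrophage markers lie above zero in all 3 BPD livers.

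On all arrays together, the median signal was 174 to 197 in BPD and 135 to 157 in GFP livers, and the share of probe sets under the added constant ran from 11.8% to 15.99%. The ratio of 3' to 5' signal was 0.735 to 0.863 in BPD and 0.785 to 0.9003 in GFP livers for Gapdh, and 1.23 to 1.75 and 1.40 to 1.59 for beta-actin, ranges that overlap.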

How the data were processed

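Liver RNA of 6 mice was measured on 6 one-colour arrays. Per the submitters' processing notes, the deposited signal intensities were made by the authors with MAS5 (version not given in the sources). They are linear, and every array has the same trimmed mean (499.9, 2% cut from either end). All 6 columns were used. Control probe sets (64 of 22690) were left out. Groups and mouse numbers come from the sample titles.

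Values were taken as log2(signal + 16.3), the constant being 10% of the median of all values (163), and each array was centred on its median, since medians differed 1.46-fold. Differences of dim probe sets are thereby understated. Probe sets with a mean above the 40th percentile (13575) were fitted with limma 3.58.1 in R 4.3.3 (lmFit, eBayes with trend, 2-sided, 4 residual degrees of freedom), and p-values adjusted by Benjamini-Hochberg over all of them, threshold 0.05. The procedure was checked on simulated data. Of 22626 probe sets 20380 have 1 symbol, 691 several and 1555 none here. Updating symbols through Entrez identifiers (GRCm38.p6) changed 0.

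Members and lists were chosen with earlier results of these data known. By rule, signals in every mouse are given for the called genes of a role, up to the 4 with the smallest p, and up to 6 called related genes and 6 promoter windows of synthesis genes are named by smallest p. Chosen after their values were seen were the signals of Hmgcs1, Sqle, Insig2, Npc2, Abcg1, Abca1 and Lbr, and the Hmgcs1 window. Probe sets that can match several transcripts were kept. Alternatives were other scalings, constants, filters, probe set choices, robust eBayes and leaving out each mouse. P-values set the difference between the groups against the spread between mice within groups, which eBayes moderates across probe sets. Precision is limited by having only 3 arrays per group.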

Additional observations from a re-analysis of the deposited data

How the results depend on the processing

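Of the 24 sterol genes called lower, 13 kept the call under each of the 15 alternatives that could be fitted for them, and 11 lost it under at least 1. The 13 are the genes called under all 3 scalings. On the deposited scale 13 sterol genes were lower and 2 higher, and after quantile normalization 14 and 3, the higher ones being in uptake, transport, storage, efflux and LXR, where 2 were lower under either scaling. Early steps called lower numbered 2 on the deposited scale and 3 after quantile normalization. They also numbered 3 without the filter (12.7% of all genes lower) and when multi-transcript probe sets were dropped (17.6%). With the filter at the 60th percentile 3 early steps were called. There all 14 synthesis genes still tested were called, with 29.8% of all genes lower. Late minus early was -0.056 with quantile normalization, -0.414 and -0.461 with the larger and the smaller added constant, and -0.458 with the stricter filter. Abca1 turned to 0.45 and passed with quantile normalization. Related genes called lower numbered 9 with quantile normalization. Leaving out 1 mouse at a time gave 13 to 21 sterol genes lower and 0 higher, 2 to 5 early steps, 8 to 11 late steps, 2 to 5 of the uptake to LXR genes lower and 0 higher, -0.517 to -0.264 for late minus early, and 11 to 15 related genes lower. The lowest count of sterol genes, 13, was without BPD mouse 28, and 15 were lower without GFP mouse 31, where 11.4% and 14.6% of all genes were lower, against 22.2% with all mice. The uptake to LXR genes fell to 2 without BPD mouse 28 and 3 without GFP mouse 22. In these counts a gene too dim under an alternative is not counted. The causes were not tested. No paired analysis was possible because the groups share no mouse numbers. Dim genes such as Mvk and Pmvk are limited by signal over background.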
